A study of Homo sapiens with 18 samples.

Results

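Target genes of the transcription factor p53 were followed through 18 RNA-seq libraries of K562, a human erythroleukaemia cell line known to lack functional p53. The 31 genes are textbook p53 targets listed by name, with earlier results of these data known, out of 24408 genes with a count table entry. Of these, 27 were among the 14720 genes with enough counts to be tested, and 4 fell below that filter. The study asked whether dCas9-KRAB, a Cas9 without cutting activity joined to the KRAB repressor domain, could silence HS2, an enhancer that lies away from the beta-globin genes it controls, and where else in the genome expression changed.

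The 6 groups held 3 libraries each. In 5 groups K562 cells had been transduced with lentivirus: dCas9-KRAB without a guide RNA (gRNA), dCas9 with the HS2 gRNA CR4, dCas9 with the HS2 gRNA CR10, dCas9-KRAB with CR4, and dCas9-KRAB with CR10. Per the labels' protocols, transduction used the cationic polymer polybrene at 4 µg/ml, and selection with 1 µg/ml of puromycin began about 96 h later. The 6th group received no lentivirus. All 6 groups share the K562 background, so no group with functional p53 was available for comparison, and the lentiviral groups differ from the untransduced cells in virus, construct and selection at once. The transductions were made in triplicate, but nothing states that the untransduced libraries came from separate cultures, so p-values measure the spread between these libraries. The libraries of every group carry a number from 1 to 3, whose meaning the labels do not give.

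As background, p53 is held low in unstressed cells by the ubiquitin ligase MDM2 and the related protein MDM4. DNA damage and other stresses release it, and it then raises genes that stop the cell cycle, start apoptosis, repair DNA and adjust metabolism, together with MDM2 itself, which closes a feedback loop. Many of these genes also have a basal level that does not need p53, and several are raised by other stress pathways, among them the integrated stress response through the transcription factors ATF4 and CHOP.

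Library totals ran from 22805964 to 34032962 counts, with 2 counts per sequenced fragment. CPM below are library-size-normalised counts, scaled between libraries by edgeR's TMM factors. They are not per length, so levels are compared within a gene and not between genes. The 5 lentiviral libraries numbered 3 stood apart from those numbered 1 and 2, with 53.8% of all tested genes called different at an edgeR adjusted p below 0.05, and the untransduced library 2 stood apart from the other untransduced libraries. Totals of the number 3 libraries were 22805964 to 26179446 counts, against 23430398 to 32364862 for numbers 1 and 2, and ribosomal RNA took 1.08% to 1.2% against 0.57% to 4.02% of their counts. The K562 label was checked on markers: CDKN2A and CDKN2B, which lie in a region K562 is known to have lost, had 0 counts in all 18 libraries, and the 12 erythroid genes together reached 2636 to 5250 CPM. In bulk RNA, fewer cells expressing a gene and less RNA per cell cannot be told apart.

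Of the 31 targets, 4 were nearly without reads. PLK2, a polo-like kinase, and SPATA18, a mitochondrial quality control gene, each had 2 counts in all, in 1 library. EDA2R, a death receptor of the TNF receptor family, had 6 counts over 3 libraries, and PHLDA3, an inhibitor of AKT signalling, had 8 counts over 3 libraries with at most 4 in any of them. In a library with no count, 3 fragments or 6 counts is the level that counting alone could have missed, which corresponds to 0.176 to 0.263 CPM before scaling, and this limit covers counting error only. FAS, the death receptor, passed the filter with 2 to 20 counts per library, between 0.0661 and 0.721 CPM. The remaining targets were measured in every library, and the map of all 27 tested genes shows how they varied.

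**Figure D1:**
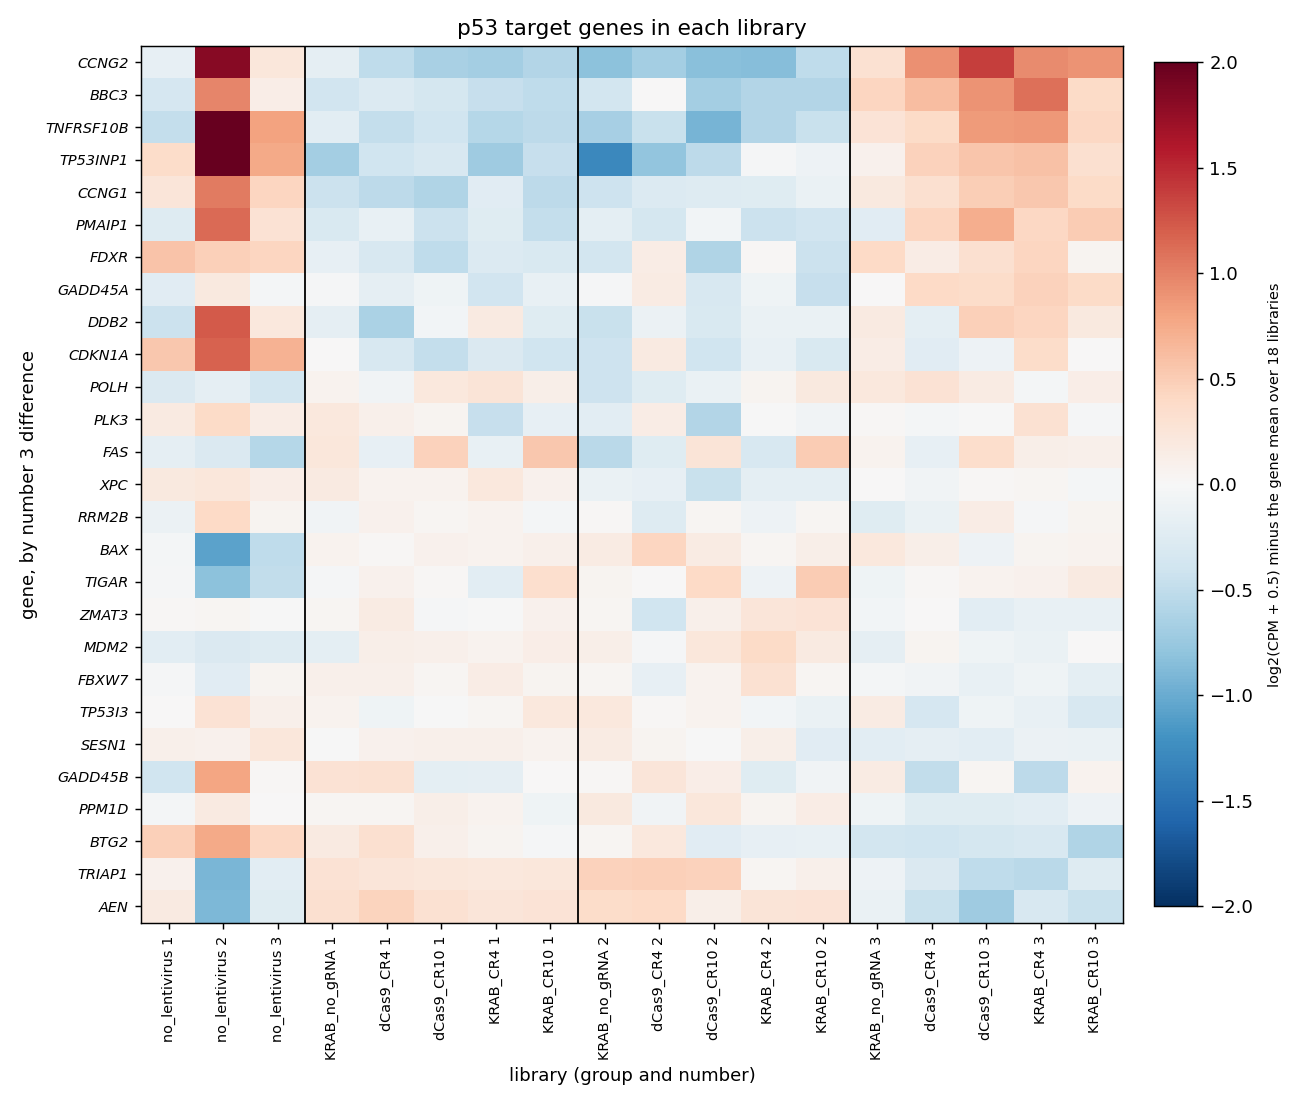
Level of the 27 tested p53 target genes (rows, ordered by their difference between number 3 and numbers 1 and 2) in the 18 libraries (columns, untransduced first, then the lentiviral libraries by number). Colour gives log2(CPM + 0.5) minus the gene's mean over the 18 libraries, limited to 2 either way. The upper rows, from CCNG2 to PMAIP1, are high in most number 3 libraries and in the untransduced library 2, and the bottom rows, TRIAP1 and AEN, are low there.

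The first question was whether bringing dCas9 or dCas9-KRAB to HS2 changed p53 target genes. None of the 27 tested targets was called in any of the 8 comparisons among lentiviral groups. Each comparison was made with edgeR's quasi-likelihood test on all 18 libraries, in a fit of group means that did not pair libraries by number. Benjamini-Hochberg adjustment ran over the 14720 genes. No target reached an unadjusted p below 0.05 in any of the 8 comparisons in that fit, and DESeq2 also called 0. Over all genes that share was 1.71% and 1.49% for dCas9-KRAB with CR4 and CR10 against dCas9-KRAB without gRNA, 0.999% and 0.496% against dCas9 with the same gRNA, and 1.26% for the mean of both. It was 0.448% and 1.19% for dCas9 with CR4 and CR10 against dCas9-KRAB without gRNA and 0.897% between the gRNAs with dCas9-KRAB. The smallest unadjusted edgeR p over targets and these comparisons was 0.059, for TIGAR between dCas9-KRAB with CR4 and dCas9-KRAB with CR10. Few other genes were called either: 0.0204% of tested genes, 3 genes, in each of the 4 comparisons of dCas9-KRAB at a gRNA with dCas9-KRAB without gRNA or with dCas9 at the same gRNA, 0.0272% for the mean of both gRNAs, and 0.0% in the other 3. A count of 0 of 27 is therefore close to what the background gives, and it is not a result about these genes. HBE1, the embryonic beta-type globin, changed by -2.89, -2.43, -2.54 and -2.17 on the log2 scale in those same 4 comparisons and was called in each by the same fits.

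Values of CDKN1A, MDM2 and BAX give the size of difference these comparisons could have missed. CDKN1A, which encodes the cyclin-dependent kinase inhibitor p21, differed by 0.07 on the log2 scale between dCas9-KRAB with CR4 and dCas9-KRAB without gRNA, with a 95% interval from -0.42 to 0.57. For CR10 the same difference was -0.16, from -0.65 to 0.33. Averaged over both gRNAs, dCas9-KRAB against dCas9 differed by 0.11, from -0.24 to 0.45. The corresponding mean differences were 0.04, from -0.16 to 0.25, for MDM2, and -0.05, from -0.34 to 0.24, for BAX, a pore-forming protein of mitochondrial apoptosis. Each of these intervals includes 0. With the library number as a block in a fit of the 15 lentiviral libraries they were narrower, from -0.29 to 0.43 and from -0.51 to 0.21 for CDKN1A at CR4 and CR10, and from -0.16 to 0.35, from -0.12 to 0.20 and from -0.20 to 0.12 for the mean differences of CDKN1A, MDM2 and BAX. The blocked fit also called 0 targets in each of the 8 comparisons. In 5 of them 3 targets each reached an unadjusted p below 0.05, against 3.5% to 10.3% of all genes there, and in the other 3 none did, against 1.83% to 5.22%. The smallest was 0.00966, for DDB2 between dCas9-KRAB and dCas9 with CR4. Whether the effect of dCas9-KRAB over dCas9 differed between CR4 and CR10 was tested as an interaction, and 0 targets were called. Each had an edgeR adjusted p of 0.9999. The share over all genes is not given for this test, so the count of 0 is not a result about these targets.

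**Figure D2:**
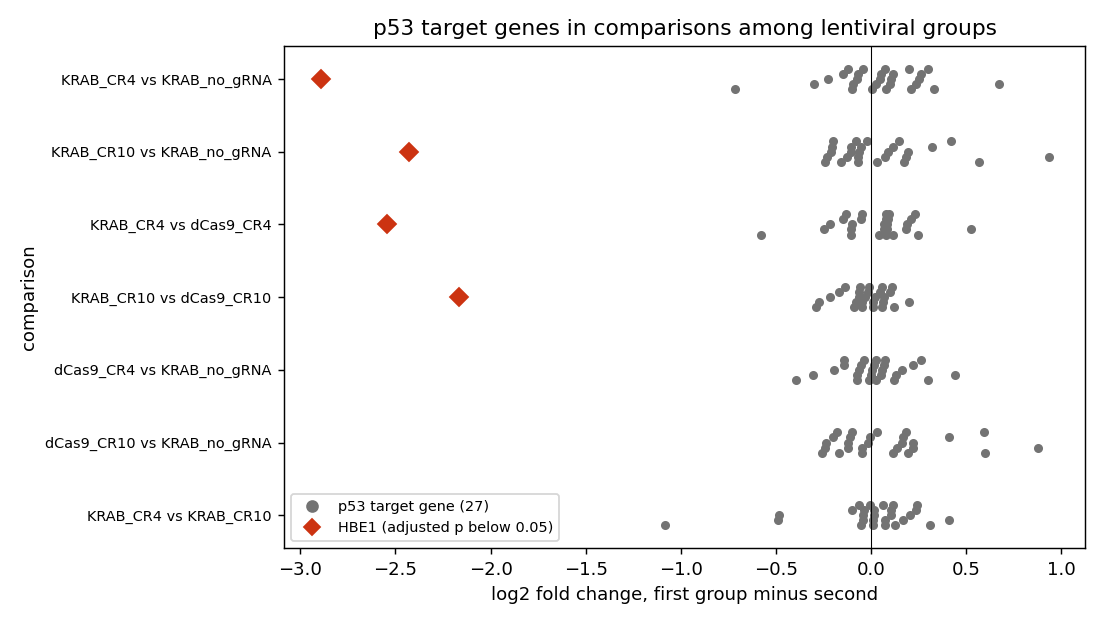
Log2 fold change (horizontal axis, first group minus second) of the 27 tested p53 target genes (grey points) in 7 pairwise comparisons among lentiviral groups (vertical axis), with the called differences of HBE1 as diamonds. The points gather around 0 and none is called, while HBE1 lies between -2.89 and -2.17 where dCas9-KRAB with a gRNA is the first group and its reference lacks the gRNA or the KRAB domain.

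The second question was how lentivirus and selection together compared with untransduced cells. Over the mean of the 5 lentiviral groups, 7 of 27 targets were called, 2 higher and 5 lower, which is 25.9% against 18.7% of all tested genes (7.55% higher and 11.2% lower). The median log2 difference of the 27 targets was -0.17, against 0.01 over all tested genes. CDKN1A, BTG2, TP53INP1, TNFRSF10B and FDXR were lower in the lentiviral groups, and BAX and TIGAR were higher. The untransduced library 2 decided most of these calls: without it 1 target, CDKN1A, was called, against 2.32% of all genes. Without the untransduced library 3 the count was 3 targets, and it was 4 without any single one of 7 lentiviral libraries. On leaving out 1 library, the count over all genes ran from 346 to 3629, in place of 2757.

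Of these 7 targets, CDKN1A was the one called in every alternative computed. It was at 21.8, 34.2 and 24.4 CPM in the untransduced libraries 1, 2 and 3, a mean of 26.8 ± 6.53 CPM (SD, n = 3). In the lentiviral libraries it was 16.5, 12.7, 13.8, 19.2 and 14.9 CPM in the number 3 libraries of dCas9-KRAB without gRNA, dCas9 with CR4, dCas9 with CR10, dCas9-KRAB with CR4 and dCas9-KRAB with CR10, and 10.5 to 16.9 CPM with a median of 11.9 in the 10 others. Each of the 15 lentiviral libraries lay below each untransduced one. The lentiviral mean of 13.5 ± 2.56 CPM (SD, n = 15) was 1.99-fold lower, a log2 difference of -0.996 ± 0.16 (SE, 95% interval -1.35 to -0.65) with an edgeR adjusted p of 0.00129. Over the 26 alternatives its difference lay between -1.14 and -0.79, with a highest adjusted p of 0.0323. Non-overlapping groups were found for 3 of the 27 targets, CDKN1A, BTG2 and MDM2, which is 11.1% against 7.55% of all tested genes.

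BTG2, an antiproliferative gene, also separated the groups. The untransduced libraries held 42.1, 51.7 and 40.7 CPM, a mean of 44.8 ± 5.96 CPM (SD, n = 3), and all 15 lentiviral libraries lay below them, with a mean of 28.4 ± 5.27 CPM. Its log2 difference was -0.66 ± 0.15 (SE) with an edgeR adjusted p of 0.00848. Without the untransduced library 2 the groups still did not overlap, but the adjusted p was 0.107. MDM2 lay the other way, at 125, 119 and 120 CPM untransduced, 126 to 189 CPM with a median of 157 in the lentiviral libraries numbered 1 and 2, and 127, 150, 136, 131 and 145 CPM in those numbered 3. Every lentiviral library was above every untransduced one, yet its log2 difference of 0.31 ± 0.11 (SE) had an edgeR adjusted p of 0.0509 and was not called. A lower CDKN1A and BTG2 thus stood beside an MDM2 without a called change.

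TP53INP1 and TNFRSF10B, regulators of cell death, had the largest called differences, and neither call held without the untransduced library 2. TP53INP1, a stress-induced nuclear protein, was at 4.19, 16.1 and 5.68 CPM in the untransduced libraries and at 0.988 to 4.97 CPM in the 15 lentiviral ones. Its log2 difference was -1.62 ± 0.38 (SE) with an edgeR adjusted p of 0.00868, and -0.81 with an adjusted p of 0.308 without that library. TNFRSF10B, the death receptor for TRAIL, was at 30.1, 185 and 73.7 CPM untransduced, so the untransduced values reached from inside the range of the lentiviral libraries to above all of them. The log2 difference of TNFRSF10B was -1.26 ± 0.40 (SE), edgeR adjusted p 0.0386, and -0.37, adjusted p 0.714, without that library. Its call was lost in 13 of 26 alternatives, among them DESeq2 and leaving out the untransduced library 3 or any 1 of the 10 lentiviral libraries numbered 1 and 2.

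BAX was at 45.8, 22.2 and 33.2 CPM in the untransduced libraries and between 44.1 and 63.6 CPM in all 15 lentiviral ones, with 1 untransduced library inside that range. The lentiviral mean was 51.1 ± 4.27 CPM (SD, n = 15) against 33.7 ± 11.8 CPM (SD, n = 3). Its log2 difference was 0.60 ± 0.15 (SE, 95% interval 0.27 to 0.92) with an edgeR adjusted p of 0.0129, and the call was lost without the untransduced library 2, at 0.37 with an adjusted p of 0.123, or library 3. FDXR, the mitochondrial ferredoxin reductase, was at 66.1, 61.9 and 59.9 CPM untransduced and had a log2 difference of -0.56 ± 0.19 (SE, edgeR adjusted p 0.0453), lost in 14 of 26 alternatives. TIGAR, a fructose bisphosphatase that limits glycolysis, was at 2.85, 1.43 and 1.92 CPM untransduced and 3.14 ± 0.52 CPM (SD, n = 15) in the lentiviral libraries. The TIGAR difference of 0.59 ± 0.19 (SE, edgeR adjusted p 0.0425) was lost in 12 of 26 alternatives. CCNG1, with a log2 difference of -0.68 and an edgeR adjusted p of 0.0537, was not called.

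Leaving out the 5 lentiviral libraries numbered 3, an alternative chosen after the data were seen, gave 14 called targets, 4 higher and 10 lower, against 30.1% of all genes. Adding the library number as a block to the fit gave 12 called targets, 4 higher and 8 lower, against 28.5% of all genes. That block takes the number effect as the same in untransduced and lentiviral libraries. Between them only 5 of 15 same-number pairs correlated above 0.1 in their deviations from the group means. Against dCas9-KRAB without gRNA alone, the transduced control of the study, 3 of 27 targets were called, 11.1% against 6.63% of all tested genes (2.87% higher and 3.76% lower). CDKN1A was lower by -0.92 ± 0.23 (SE) on the log2 scale, at 14.2 ± 2.82 CPM (SD, n = 3), with an edgeR adjusted p of 0.0285. TP53INP1 was lower by -2.07 ± 0.57 (SE) and BAX higher by 0.64 ± 0.19 (SE), with edgeR adjusted p values of 0.0404 and 0.0499. No target was called there when any 1 library of the pair other than the untransduced library 1 was left out, or when only the compared groups were fitted, while the number block gave 6, against 17.8% of all genes. In that comparison the groups did not overlap for 7 of 27 targets, against 26.5% of all tested genes. Both comparisons share the untransduced libraries and are not independent.

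**Figure D3:**
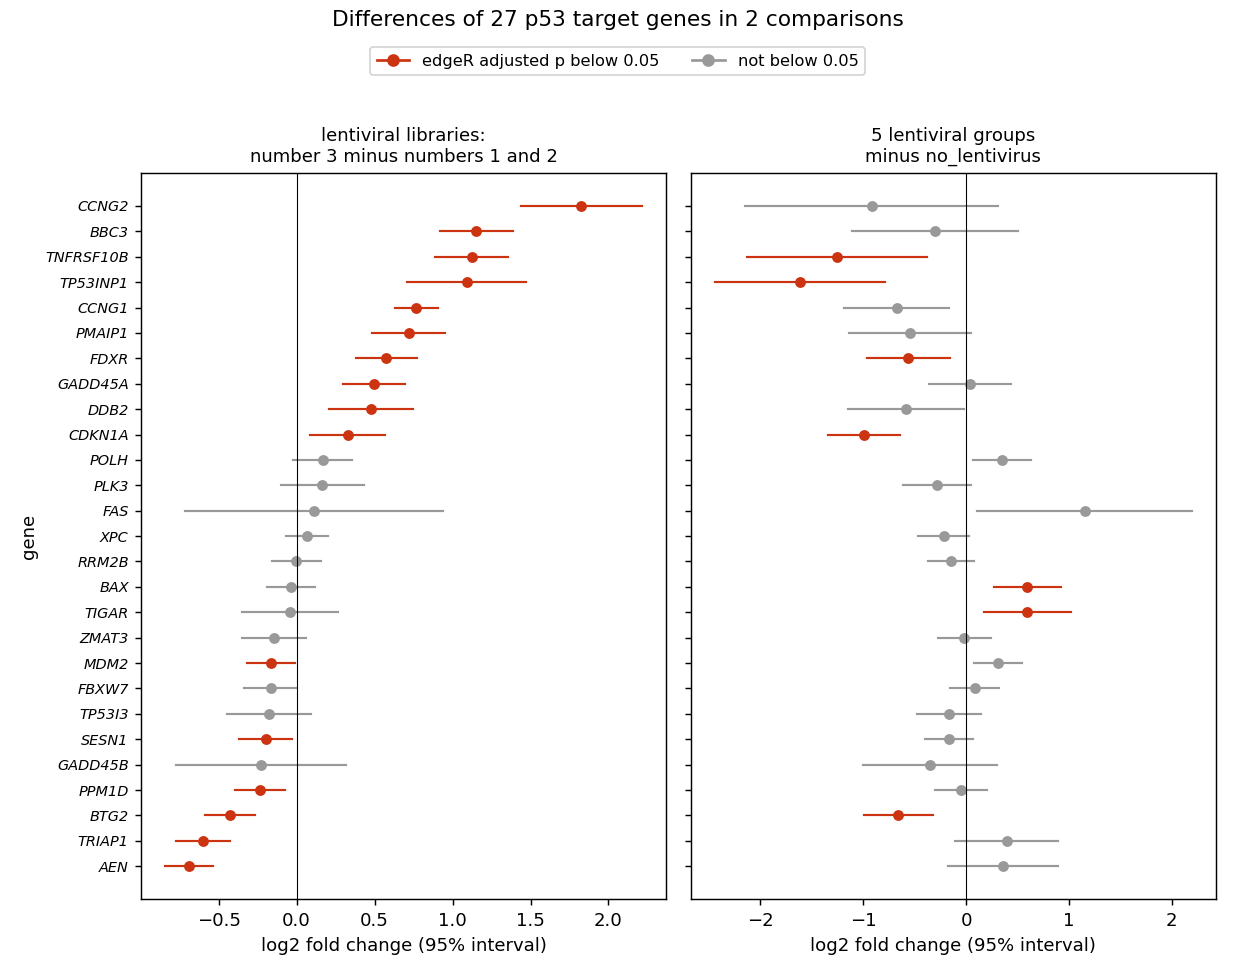
Log2 fold change with its 95% interval (horizontal axis) of the 27 tested p53 target genes (vertical axis), for lentiviral libraries numbered 3 minus those numbered 1 and 2 (left) and for the mean of the 5 lentiviral groups minus the untransduced group (right). Red marks an edgeR adjusted p below 0.05. On the left 10 genes are called above 0 and 6 below, and on the right 2 above and 5 below, with wider intervals.

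The third comparison followed the library number within the lentiviral groups. Between number 3 and numbers 1 and 2, 16 of 27 targets were called, 10 higher and 6 lower, in an edgeR fit of the 15 lentiviral libraries with group and number as terms. That is 59.3% of the targets against 53.8% of the 14605 genes tested there (27.9% higher and 25.9% lower), so the share of targets called is near the background and is not a result about p53 targets. The median log2 difference was 0.07 over the targets and 0.03 over all genes. The values below therefore describe which targets moved and by how much. Each number occurs once per group, and all 30 same-number lentiviral pairs correlated above 0.1 in their deviations from the group means. The p-values here thus measure the spread between libraries, and not between repeats of a number. Groups did not overlap for 9 targets, 5 higher and 4 lower, or 33.3% against 20.8% of all genes (9.12% higher and 11.7% lower).

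Among the cell cycle genes, CCNG2 and CCNG1 were higher in the number 3 libraries. CCNG2, an atypical cyclin known for blocking cell cycle progression, was at 3.38, 5.46, 7.67, 5.54 and 5.35 CPM in the number 3 libraries, in the order of groups given for CDKN1A, and at 1.24 to 2.27 CPM with a median of 1.48 in the other 10. Its difference was 3.55-fold, or 1.83 ± 0.17 (SE) on the log2 scale, with an edgeR adjusted p of 3.47e-08 and no overlap. CCNG1, cyclin G1, was at 339, 372, 417, 432 and 389 CPM against 196 to 271 CPM with a median of 235. It was 1.7-fold higher, 0.77 ± 0.06 (SE) on the log2 scale, with an edgeR adjusted p of 5.42e-09 and no overlap. The untransduced libraries were above the range of numbers 1 and 2, at 354, 610 and 401 CPM for CCNG1 and at 2.31, 10.6 and 3.17 CPM for CCNG2, with library 2 highest in each case.

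GADD45A, a growth arrest and DNA damage gene, was at 118, 156, 152, 162 and 154 CPM in the number 3 libraries against 85.5 to 133 CPM with a median of 109. It was 1.41-fold higher, 0.50 ± 0.09 (SE) on the log2 scale, with an edgeR adjusted p of 6.49e-05, and the value of dCas9-KRAB without gRNA lay inside the range of numbers 1 and 2. CDKN1A was higher by 0.33 ± 0.10 (SE) with an edgeR adjusted p of 0.0114, the ranges overlapped, and the call was lost without dCas9-KRAB with CR4 library 3. BTG2 was lower, at 23.3, 22.9, 23.7, 24.1 and 19.9 CPM against 25.8 to 38.1 CPM with a median of 31.3, a difference of -0.43 ± 0.07 (SE) with an edgeR adjusted p of 3.66e-05 and no overlap. Arrest genes thus lay on both sides.

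Of the cell death genes, 4 were higher and 2 lower. BBC3, which encodes the BH3-only protein PUMA, was at 30.4, 34.7, 42.3, 48.8 and 29.7 CPM in the number 3 libraries and at 14 to 22.6 CPM with a median of 16.8 in the others, with 17.8, 44.7 and 24.8 CPM in the untransduced libraries. BBC3 was 2.22-fold higher, 1.15 ± 0.10 (SE) on the log2 scale, with an edgeR adjusted p of 2.51e-08 and no overlap. TNFRSF10B was at 50.5, 54.7, 76.2, 77.2 and 55.7 CPM against 21.7 to 36.3 CPM with a median of 29.4. It was 2.18-fold higher, 1.12 ± 0.10 (SE), edgeR adjusted p 2.72e-08, without overlap, and only the untransduced library 1 of its group lay as low as numbers 1 and 2. TP53INP1 was at 3.38, 4.53, 4.88, 4.97 and 4.07 CPM against 0.988 to 3.1 CPM with a median of 2.1, a 2.13-fold difference with an edgeR adjusted p of 1.45e-05 and no overlap.

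PMAIP1, which encodes the BH3-only protein NOXA, was at 24.3, 38.7, 47.3, 38.2 and 40.7 CPM against 20.3 to 27.5 CPM with a median of 22.6, and at 23.9, 63.2 and 35.1 CPM in the untransduced libraries. It was 1.65-fold higher, 0.72 ± 0.10 (SE) on the log2 scale, with an edgeR adjusted p of 6.54e-06. Its number 3 library of dCas9-KRAB without gRNA lay inside the range of numbers 1 and 2. AEN, a nuclease that takes part in apoptosis, was lower in number 3, at 94.3, 75.9, 63.3, 82.7 and 76.3 CPM against 112 to 141 CPM with a median of 127. The AEN difference was 1.61-fold, -0.69 ± 0.07 (SE) on the log2 scale, with an edgeR adjusted p of 6.13e-08 and no overlap, and the untransduced libraries were at 118, 55.2 and 87.2 CPM. TRIAP1, a small protein that counteracts apoptosis, was at 43, 37.9, 32.3, 31.8 and 38.5 CPM against 47.8 to 64.8 CPM with a median of 54.6. Its difference was -0.60 ± 0.08 (SE), edgeR adjusted p 1.48e-06, without overlap, and the untransduced libraries held 49.1, 24.4 and 40 CPM. BAX was not called, with a log2 difference of -0.03 and an edgeR adjusted p of 0.68, and FAS was not called either.

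**Figure D4:**
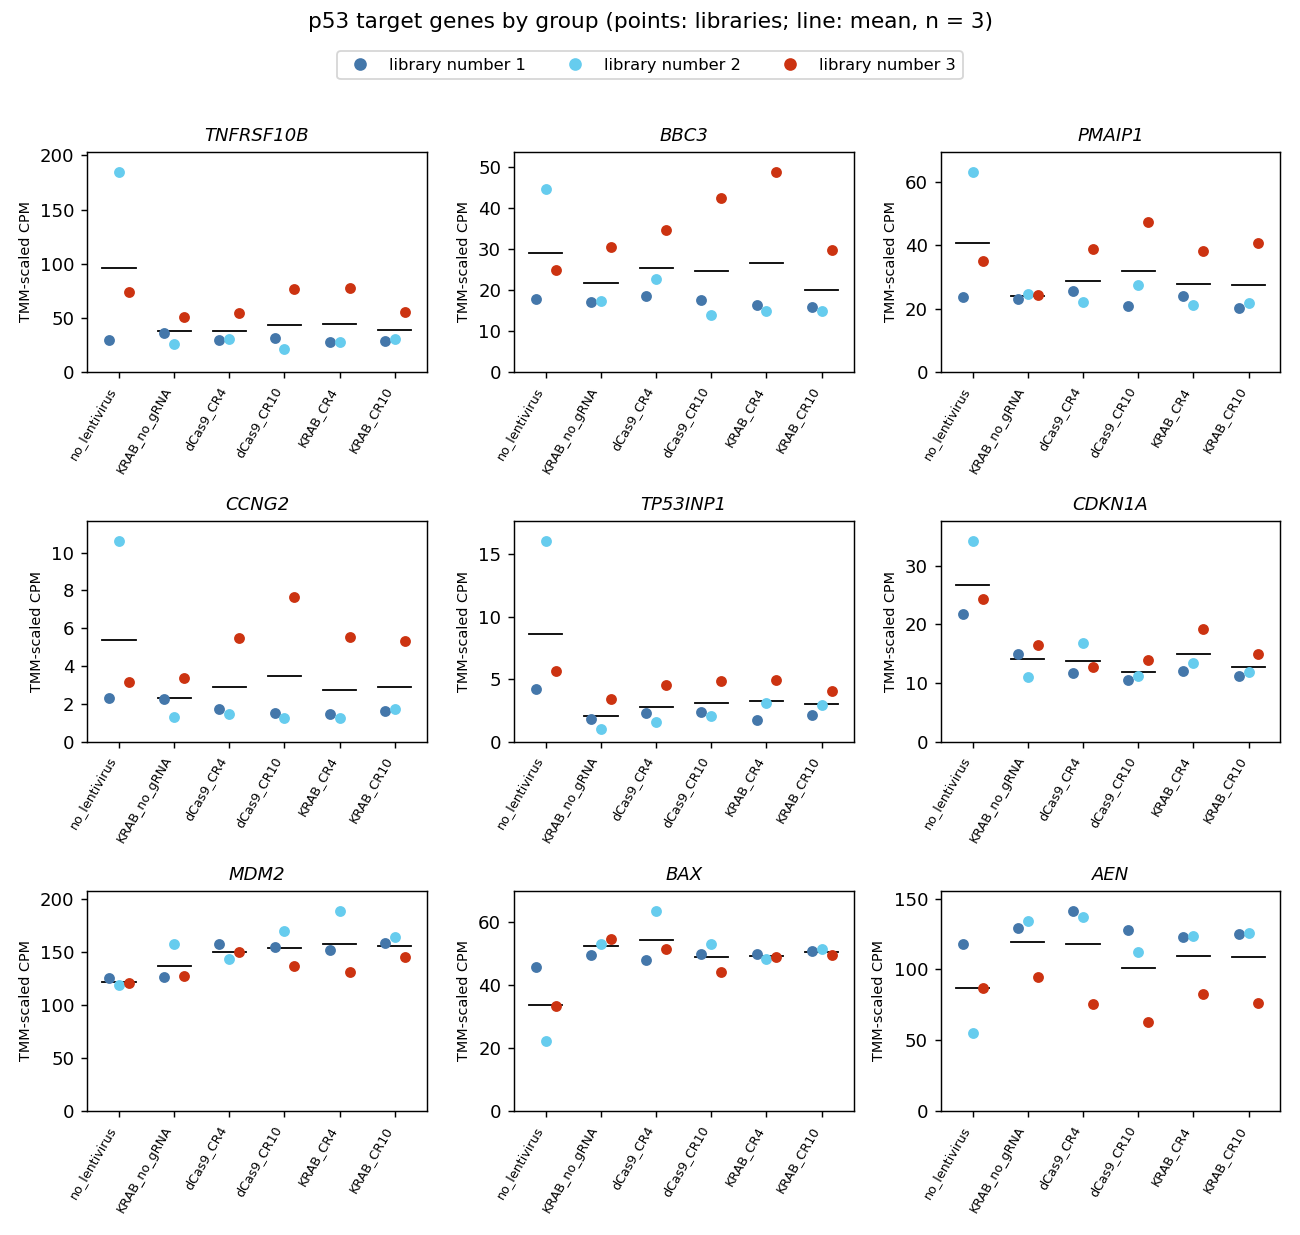
TMM-scaled CPM (vertical axes, each from 0) of 9 p53 target genes in the 6 groups (horizontal axes), with 1 point per library coloured by library number and a line at the group mean of 3 libraries. The number 3 points of TNFRSF10B, BBC3, CCNG2 and TP53INP1 lie above and those of AEN below the number 1 and 2 points in every lentiviral group, while in the untransduced group library 2 is the highest for those 4 genes and the lowest for AEN.

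Repair, metabolic and feedback genes were called in both directions. DDB2, the damage-binding subunit of nucleotide excision repair, was at 6.37, 4.79, 7.96, 7.66 and 6.46 CPM in number 3 against 3.42 to 6.39 CPM with a median of 4.95, a difference of 0.48 ± 0.12 (SE) with an edgeR adjusted p of 0.00189 and overlapping ranges. FDXR was at 58.6, 49.5, 55.4, 60.2 and 46.1 CPM against 29 to 49.1 CPM with a median of 35.6. It was 1.49-fold higher, 0.58 ± 0.09 (SE) on the log2 scale, with an edgeR adjusted p of 1.16e-05. PPM1D, the phosphatase that switches p53 signalling off, was at 28.1, 25.2, 25, 25.8 and 27.7 CPM against 28.1 to 35.1 CPM with a median of 31.3, and at 28.9, 33.9 and 29.9 CPM untransduced. It was lower by -0.24 ± 0.07 (SE) with an edgeR adjusted p of 0.00693. SESN1, a sestrin that restrains mTORC1, was at 19.4, 19.8, 19.4, 20.6 and 20.5 CPM against 19.1 to 25.2 CPM with a median of 23.7, and at 24.2, 23.9 and 26.3 CPM untransduced. Its difference of -0.20 ± 0.07 (SE, edgeR adjusted p 0.028) was lost in 7 of 22 alternatives. MDM2 was lower by -0.16 ± 0.07 (SE), with an edgeR adjusted p of 0.0449, and lost its call in 10 of 22.

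The direction held across groups for most called targets. Of the 10 higher ones, 9 were higher in number 3 within each of the 5 lentiviral groups, the exception being CDKN1A in dCas9 with CR4 at -0.15 on the log2 scale. Of the 6 lower ones, 5 were lower within each group, MDM2 being the exception. These targets were called from the same libraries, so such agreement follows in part from the selection. The share over all called genes was not computed for it. The group dCas9-KRAB without gRNA had the smallest difference for 5 of the 10. It stood furthest apart at 0.03 for PMAIP1 against 0.69 to 0.96 in the other groups, and 0.02 for GADD45A against 0.41 to 0.69. For CCNG1 it was closer, at 0.61 against 0.71 to 0.92. The share over all called genes was not computed for this either, so it is not a result about p53 targets. The untransduced library 2 was above both other untransduced libraries for 9 of the 10 higher targets, FDXR being the exception, and below both for 4 of the 6 lower ones. Over all genes called higher or lower in number 3 the same held for 69.1% and 71.6%. These shares are descriptions without a test.

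Between numbers 1 and 2, 1 target was called, 3.7% against 1.05% of tested genes (0.876% higher in number 1). XPC, which recognises DNA lesions in nucleotide excision repair, was at 69.7, 64.6, 64.8, 71.3 and 65.3 CPM in number 1 and at 55.9, 55.1, 45.2, 53.5 and 53.6 CPM in number 2, again in the order of groups given for CDKN1A. The ranges did not overlap, as for 3.88% of tested genes, and the untransduced libraries held 70.9, 72.1 and 67.6 CPM. The log2 difference of 0.33 ± 0.07 (SE) had an edgeR adjusted p of 0.0321, lost in 6 of 22 alternatives, all of them without 1 library of number 1 or 2 or with the untransduced libraries in the fit.

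A set of 8 of the 27 tested targets was called in none of the 12 comparisons. Over all 18 libraries RRM2B, a ribonucleotide reductase subunit, ranged from 48.6 to 76.5 CPM, POLH, a translesion DNA polymerase, from 45.1 to 73 CPM, and ZMAT3, an RNA-binding protein, from 35.8 to 57.3 CPM. FBXW7, a ubiquitin ligase subunit, ranged from 20.1 to 29.6 CPM, PLK3, a stress-responsive kinase, from 8.29 to 16.7 CPM, and TP53I3, a quinone oxidoreductase, from 3.53 to 5.7 CPM. GADD45B, a stress-response gene of the GADD45 family, ranged from 0.571 to 2.17 CPM, and FAS is given above.

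Promoter sequences were examined because targets moved in opposite directions between the library numbers. RefSeq promoters of GRCh38.p14 were found for 26 of the 31 genes, 41 promoters in all, and the 250 bases before each start were searched on both strands. No promoter was matched for RRM2B, PHLDA3, TP53INP1, TNFRSF10B and GADD45A, so these genes were not searched. The last 3 of them were called higher in number 3. The count tables were made on hg19, so these positions belong to GRCh38.p14 only. Only exact matches were sought, so sites that differ from a consensus by any base were not found. No target promoter held an exact full p53 consensus, 2 half-sites separated by 0 to 13 bases, which 0.0256% of all 35116 promoters held. An exact half-site, the p53 decamer that also makes up the full consensus, was in promoters of 5 targets (AEN, FAS, FDXR, PLK2 and SESN1) and in 5.57% of all promoters. FDXR and AEN are shown because both hold the same decamer and yet differed in direction, FDXR higher and AEN lower in number 3. They lie at chr17:74872995-74873244 on the minus strand and chr15:88621090-88621339 on the plus strand, and capitals mark the decamer.
FDXR: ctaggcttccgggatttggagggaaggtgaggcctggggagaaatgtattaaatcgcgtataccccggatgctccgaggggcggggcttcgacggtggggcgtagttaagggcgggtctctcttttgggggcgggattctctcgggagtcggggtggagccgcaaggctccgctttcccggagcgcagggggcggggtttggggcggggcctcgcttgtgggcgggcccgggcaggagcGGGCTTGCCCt
AEN: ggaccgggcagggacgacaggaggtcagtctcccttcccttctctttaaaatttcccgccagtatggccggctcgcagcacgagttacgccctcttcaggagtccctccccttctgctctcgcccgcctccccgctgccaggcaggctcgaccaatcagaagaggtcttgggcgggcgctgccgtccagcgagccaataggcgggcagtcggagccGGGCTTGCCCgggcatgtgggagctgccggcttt
The decamer starts 11 bases before the FDXR start and 34 bases before the AEN start. The letters TGACG, the core that factors of the CREB and ATF family bind, were in 12 of the 41 target promoters and in 21.2% of all promoters, and of the targets holding them 2 were higher and 3 lower in number 3. TGATGCAA, a composite element bound by ATF4 with a C/EBP partner, was in 0 target promoters and in 0.772% of all. PMAIP1 is shown as the target that holds TGACG with the larger rise, at chr18:59899746-59899995 on the plus strand, with capitals on its reverse complement, 55 bases before the start.
PMAIP1: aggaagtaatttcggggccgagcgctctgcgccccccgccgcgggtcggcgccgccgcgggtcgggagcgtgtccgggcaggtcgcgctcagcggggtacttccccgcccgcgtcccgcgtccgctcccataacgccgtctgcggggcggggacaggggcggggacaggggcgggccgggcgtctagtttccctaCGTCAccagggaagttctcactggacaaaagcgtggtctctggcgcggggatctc
Each match is a run of letters in the window and not a shown binding site. A window without one says nothing about inexact sites within it or about sites elsewhere, such as introns.

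Other genes of the pathway were read from lists chosen with earlier results of these data known. Of 23 tested regulators of p53, 3 were higher and 13 lower in number 3, with a median log2 difference of -0.24. Over all tested genes 27.9% were higher and 25.9% lower in number 3, which is the background for each list count in that comparison. MDM4 was at 58.9 ± 8.78 CPM (SD, n = 5) against 29.1 ± 6.98 CPM (SD, n = 10), a log2 difference of 1.04, and at 17.1, 39.1 and 18.2 CPM in the untransduced libraries. BCL6, a transcriptional repressor, was higher by 1.54, and CREBBP, a histone acetyltransferase and p53 coactivator, lower by -0.79. TP53BP2, a p53-binding protein of the ASPP family, was lower by -0.65. Against untransduced cells 1 regulator, COP1, a ubiquitin ligase, was lower, by -0.36, with overlapping groups. Between numbers 1 and 2, the kinases ATR and PRKDC and the repair factor TP53BP1 were higher in number 1, by 0.40, 0.44 and 0.40. All of these passed edgeR's adjusted p of 0.05.

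Of 44 further p53 targets outside the 31, 13 were higher and 11 lower in number 3, with a median of 0.02. DDIT4, an inhibitor of mTORC1, was at 698 ± 168 CPM (SD, n = 5) against 140 ± 17.5 CPM (SD, n = 10), and GDF15, a secreted stress cytokine, at 79.1 ± 19.8 CPM against 21.3 ± 2.87 CPM. ATF3 and SESN2 were higher as well, by 1.58 and 1.23 on the log2 scale. DDIT4, ATF3 and SESN2 are on the list of ATF4 targets too. Of those 16 genes 14 were higher and 0 lower, with a median log2 difference of 0.98. CHAC1, a glutathione-degrading enzyme raised by ATF4, was at 65 ± 24.7 CPM against 8.18 ± 1.12 CPM. The ATF4 targets summed to 2124 to 3876 CPM in number 3, to 1342 to 1619 CPM in numbers 1 and 2, and to 1716, 6471 and 3012 CPM in the untransduced libraries 1, 2 and 3. The part of this list's change in the values of the p53 targets was not tested.

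Against untransduced cells, the lentiviral mean had 2 further p53 targets higher and 4 lower of 44. Of 16 ATF4 targets 7 were lower and 0 higher. Over all tested genes 7.55% were higher and 11.2% lower. The ATF4 targets with the smallest adjusted p, PHGDH, ATF5, ASNS and VLDLR, overlapped between the groups. Summed, the ATF4 list was highest in the untransduced library 2, at 6471 CPM. All number 3 lentiviral libraries, at 2124 to 3876 CPM, lay above the untransduced library 1, at 1716 CPM. Of the further p53 targets, PIDD1, a death-domain protein, was higher by 0.65, and DRAM1, an autophagy regulator, lower by -0.56. SESN3 and NINJ1 were lower by -0.80 and -0.84. For each of PIDD1, DRAM1, SESN3 and NINJ1 the lentiviral and untransduced libraries overlapped. For dCas9-KRAB without gRNA alone, SESN3 and the ceramidase ACER2 were lower and TNFSF9, a TNF family ligand, was higher, by -1.14, -0.75 and 0.60. Some markers of other blood lineages moved between the same libraries. The 5 myeloid markers together were at 47.5 to 56.8 CPM in number 3, 20.2 to 30.8 CPM in numbers 1 and 2 and 42.5 to 79 CPM untransduced. Only 2 of these passed the count filter, LYZ and SPI1, at means of 24.7 and 26.3 CPM in number 3 against 13.1 and 12.3 CPM. The 5 megakaryocyte markers together were at 10.9 to 14.5, 4.32 to 7.47 and 18.3 to 29.3 CPM. Of these, 2 passed the filter and 1, ITGA2B, was called higher in number 3, at 10.1 against 3.54 CPM. GP9 had 0 counts in all libraries, and PF4 had 0 in all lentiviral ones. The lymphoid markers together were at 0.81 to 3.41 CPM, with MS4A1 at 0. Of 12 erythroid genes, 8 were lower and 0 higher in number 3. The part of these markers in the results above was not tested.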

How the data were processed

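Poly(A) RNA of 18 K562 libraries was sequenced after Nextera tagmentation, which does not keep the strand. The authors deposited whole-number counts per RefSeq accession for each library. Per the submitters' processing notes, Bowtie2, SAMtools, Picard, R 3.1.2 and DESeq were used with hg19. The counting tool and annotation are not given in the sources used here. Every deposited count is even, so a fragment gave 2 counts.

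Of 40709 accessions, 39324 were matched to symbols through RefSeq and 517 through GENCODE, 97.87% of accessions and 99.02% of counts. The 868 accessions without a match were kept under their own names. Counts were summed to 24408 entries, which include these accessions and are counted as genes throughout. Library totals were 22805964 to 34032962 counts, and the biological coefficient of variation was 21.6%. Genes were filtered with filterByExpr and tested with edgeR 4.0.16 (limma 3.58.1, R 4.3.3), TMM scaling, the quasi-likelihood test and Benjamini-Hochberg adjustment over all tested genes at 0.05. The 10 group comparisons used 1 fit of all 18 libraries, and the 2 number comparisons an additive fit of group and number on the 15 lentiviral libraries. The SE is the log2 difference divided by the square root of the test's F. The scripts were tested on simulated data.

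Same-numbered lentiviral libraries were paired in the number comparisons and in the fits with a number block, but not in the main group comparisons. The reason for pairing was that all 30 same-number pairs correlated above 0.1 in their deviations from the group means (0.17 to 0.88, over 11763 genes). With untransduced libraries this held for 5 of 15 pairs. Alternatives were DESeq2 1.42.0, RLE scaling, other count filters, halved counts, other sets of libraries, a number block and leaving out each library. Leaving out the lentiviral libraries numbered 3 was added after seeing the data.

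The 31 genes and the other lists were chosen with earlier results of these data known. The most values are given for CDKN1A, MDM2, BAX and the 15 called targets with the smallest adjusted p. For these, some sets of libraries are given singly and others by range, median or mean. Other targets are given by range and counts, and at most 4 genes are named per other list and comparison. Values of some genes of these lists are not reported here.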

Additional observations from a re-analysis of the deposited data

How the results depend on the processing

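In the 8 comparisons among lentiviral groups, 0 of 27 p53 targets were called in each of the 142 alternatives computed over them, 17 to 23 per comparison, while the count over all genes ran from 0 to 14. Between number 3 and numbers 1 and 2, the 16 called targets became 12 to 18, the lowest with the untransduced libraries in the fit. Over all genes the count there was 4296 to 8156 in place of 7857. The single call between numbers 1 and 2 became 0 with the untransduced libraries in the fit and 0 to 1 on leaving out a library. Over all genes that count was 0 to 893 in place of 154. Against untransduced cells, the 3 calls of dCas9-KRAB without gRNA became 0 when only the compared groups were fitted and 0 to 6 on leaving out a library, with 0 to 2619 genes over all alternatives in place of 976. The 7 calls of the lentiviral mean became 14 without the lentiviral libraries numbered 3 and 1 to 9 on leaving out a library, with 346 to 4442 genes in place of 2757. When the replicate number was added as a block to the fit of all libraries, the calls were 6 and 12 in these 2 comparisons, and the block changed no other count of called targets. No result reversed its direction. The causes of these changes were not tested. FAS, GADD45B and TIGAR have few counts, and their differences carry wide intervals. CCNG2 and TP53INP1 also had few counts in some libraries, the lowest being 28 and 26.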

Other observations

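Genes that p53 lowers through p21 and the DREAM complex, mostly cell cycle genes, were read from a list of 20, all tested. In number 3, 3 were higher and 6 lower, with a median log2 difference of -0.05 against 0.03 over all genes, of which 27.9% were higher and 25.9% lower. CDC25A, a phosphatase of the G1 to S transition, was lower by -0.66, and the transcription factor FOXM1 lower by -0.37. CDC25C, a phosphatase of mitotic entry, was higher by 0.61 and the mitotic kinase AURKB higher by 0.37. Against untransduced cells, the lentiviral mean had 1 of the 20 higher, the proliferation marker MKI67 by 0.69, and 4 lower. Among the lower were AURKB by -0.62 and CDC25C by -0.67. Over all genes 7.55% were higher and 11.2% lower. The groups overlapped for MKI67 and CDC25C and did not for AURKB. CDC25C and AURKB thus lay on opposite sides in the 2 comparisons. All of these passed edgeR's adjusted p of 0.05.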
